A study of Mus musculus with 8 samples.

Results

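The genes of Wnt signalling at the cell surface were followed in 8 mouse kidney tubuloid libraries. They were chosen by symbol: every Wnt ligand, every numbered Frizzled (Fzd) receptor, the co-receptors Lrp5 and Lrp6, the secreted antagonists Sfrp1, Sfrp2, Sfrp4, Sfrp5 and Dkk1 to Dkk4, Rspo1 to Rspo3 with Lgr5, Rnf43 and Znrf3, and the β-catenin target genes Axin2 and Lef1. This gave 47 genes of 24063 in the tables: 19 ligands, 10 Fzd receptors, 2 co-receptors, 8 antagonists, 6 genes of the R-spondin axis and 2 target genes. Sfrp3 stands in the tables under its symbol Frzb and is therefore given with the further pathway genes.

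Tubuloids are three-dimensional structures grown in Matrigel from tubule fragments of whole mouse kidney, here taken at postnatal day 7 to 10 per the sample labels. All 8 cultures had the genotype Pkd2fl/fl Pax8rtTA TetOCre mTmG. In this genotype doxycycline (DOX) switches on Cre in cells that express Pax8, and Cre removes the floxed part of Pkd2, the gene for polycystin-2, and turns the membrane reporter from red to green. The same alleles were thus shared by the vehicle (DMSO, n = 4 cultures) and DOX (n = 4 cultures) arms, with treatment begun on culture day 3, lasting 3 days, and RNA taken after 7 days of culture. Under the study's culture protocol, tubuloids began in medium with glial-derived neurotrophic factor (GDNF). Hepatocyte, epidermal and basic fibroblast growth factors were kept in the medium throughout. Both arms shared these factors, so the levels below are not those of untreated tubules. The libraries are called by the numbers in their labels: DMSO 3, 5, 15 and 20, and DOX 9, 12, 19 and 21. Values below are listed in that order. The labels do not say whether cultures came from separate animals, so p-values measure only the spread between cultures. Cells that do not express Pax8, such as stroma, keep Pkd2 in both arms.

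Wnt proteins are lipid-modified ligands that bind Fzd receptors. With Lrp5 or Lrp6 as a co-receptor they stabilise β-catenin, which enters the nucleus and acts with TCF/LEF factors on targets such as Axin2, while with other receptors they steer cell polarity and movement. In the developing kidney, Wnt9b from the ureteric bud and its stalk induces nephrons, Wnt4 carries the progenitors into an epithelium, Wnt11 at the ureteric tips takes part in a feedback loop with GDNF, and Wnt7b from the collecting duct shapes the medulla. Secreted Sfrp and Dkk proteins hold the signal back, and R-spondins raise it by removing the ubiquitin ligases Rnf43 and Znrf3 that clear Fzd receptors from the membrane.

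Library totals ran from 63922677 to 102716313 transcript-assigned counts. DMSO 20 and DOX 19 had counts in 13243 and 13599 genes, against at least 17054 in each of the other 6 libraries, and in 28 and 29 of the 47 Wnt genes against 40 to 44. Pkd2 itself had normalised counts of 6128, 4813, 6039 and 7538 with DMSO and of 4136, 5072, 5952 and 4624 with DOX, which DESeq2 put at −0.31 on the log2 scale (SE 0.215, adjusted p = 0.999). The groups overlapped, and counts over whole transcripts do not single out the floxed exons. By western blot, the study reported less polycystin-2 protein in tubuloids after DOX, and less in sorted green cells than in sorted red cells. The protein was still detectable after DOX, and red cells remained in differentiated structures. Protein was not measured in these 8 libraries. Epithelial markers (Epcam, Cdh1, Krt8 and others) summed to 450 to 1867 TPM (reads set against transcript length and scaled to a common total) over the 8 libraries, and stromal markers (Col1a1, Pdgfra and others) to 273 to 2674. Of the markers of mature principal cells in the collecting duct list, Aqp2 was at or near 0 throughout, whereas Fxyd4 had 4.44 to 306 TPM and Avpr2 0 to 43.7 TPM, both highest in DMSO 5. In such bulk libraries, fewer cells of a type and less RNA per cell cannot be told apart.

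The tubuloids held a broad set of Wnt genes. By TPM summed over transcripts, it was led by the antagonists Dkk3 and Dkk2, the ligands Wnt7b, Wnt5a and Wnt5b, and the receptor Fzd1. Of the 47 genes, 32 had a mean of at least 1 TPM over the 8 libraries, 24 had counts in every library and 2, Wnt3a and Wnt8a, had none in any. Being per length, TPM allows levels to be compared between genes, but the tables give it per RefSeq transcript, and reads that fit several transcripts of a gene were counted for each. Levels below are TPM summed by gene symbol unless the single transcript with the highest mean is named. On the single-transcript scale Sfrp2 and Wnt4 stood at ranks 6 and 7 of the 47 genes, ahead of Wnt5b at rank 8.

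**Figure D1:**
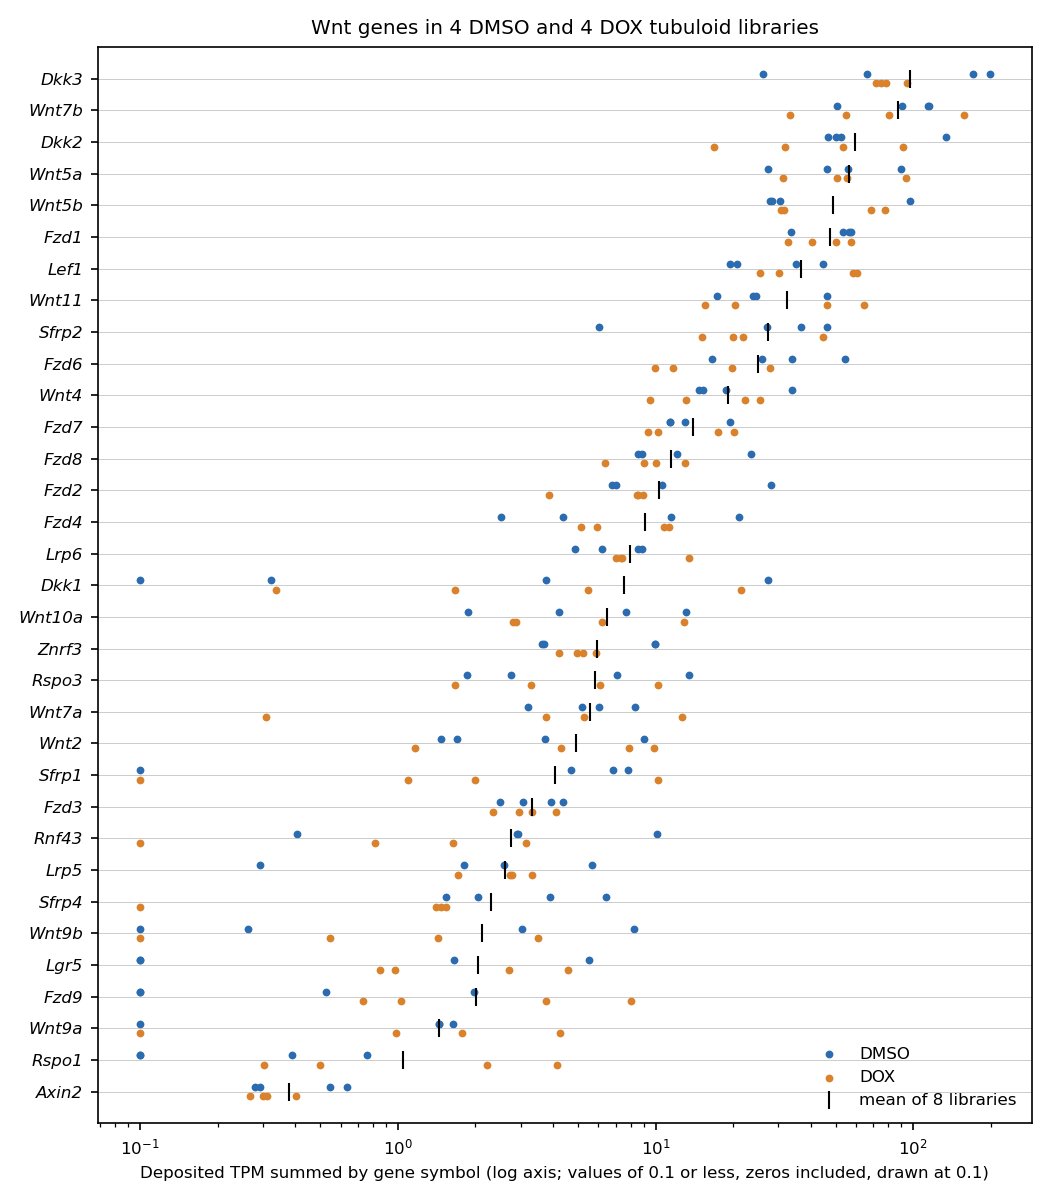
Deposited TPM summed by gene symbol (log axis) for the 33 Wnt genes described by library, ordered by mean; blue and orange points are the 4 DMSO and 4 DOX libraries and black ticks the mean of all 8. Means run from 97.5 for Dkk3 down to 0.378 for Axin2, and in no gene do the DMSO and DOX points separate.

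Wnt7b was the leading ligand by summed TPM. It measured 114, 115, 50.6 and 90.8 TPM with DMSO and 157, 54.9, 80.5 and 33.3 TPM with DOX. Both the highest and the lowest of the 8 values were DOX libraries. Wnt5a, a ligand best known for β-catenin-independent signalling through Ror2, measured 55.7, 27.4, 90.0 and 46.4 TPM with DMSO and 93.7, 50.8, 31.3 and 55.4 TPM with DOX. Its relative Wnt5b measured 28.2, 30.4, 27.8 and 97.1 TPM, then 30.7, 77.6, 31.4 and 68.8 TPM. DMSO 20 stood above the other DMSO libraries for Wnt5b, and the DOX libraries fell into a low and a high pair.

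Wnt11 measured 23.8, 24.6, 17.3 and 46.3 TPM with DMSO and 15.6, 46.1, 64.4 and 20.4 TPM with DOX. The highest Wnt11 values of either arm were thus in DMSO 20 and DOX 19, the libraries of low gene detection, and DOX 12 was close to DMSO 20. Wnt4 measured 15.3, 18.7, 14.7 and 33.9 TPM with DMSO and 13.1, 25.4, 9.48 and 22.3 TPM with DOX. DMSO 20 was again the highest, while DOX 19 was the lowest. The DMSO and DOX values overlapped for each of these ligands.

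These 5 ligands, Wnt7b, Wnt5a, Wnt4, Wnt5b and Wnt11, made up 76.9% to 85.4% of all ligand TPM in a library when each gene was represented by a single transcript. Their order depended on how transcripts were handled. Wnt7b has 3 transcripts, Wnt5b 3, Wnt11 4 and Wnt5a 2 in the tables, whereas Wnt4 has 1. On the single-transcript scale, mean TPM over the 8 libraries was 30.1 ± 14.1 (SD) for Wnt7b, 29.2 ± 12.8 for Wnt5a, 19.1 ± 7.85 for Wnt4, 16.9 ± 9.53 for Wnt5b and 8.43 ± 4.64 for Wnt11. Wnt7b and Wnt5a, and Wnt4 and Wnt5b, differed by less than their spread. Wnt11 moved from rank 8 of the 47 genes on the summed scale to rank 15 on the single-transcript scale. The leading ligand on that scale was Wnt7b in DMSO 3, DMSO 5, DOX 9 and DOX 19, Wnt5a in DMSO 15 and DOX 21, Wnt4 in DMSO 20 and Wnt5b in DOX 12.

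**Figure D2:**
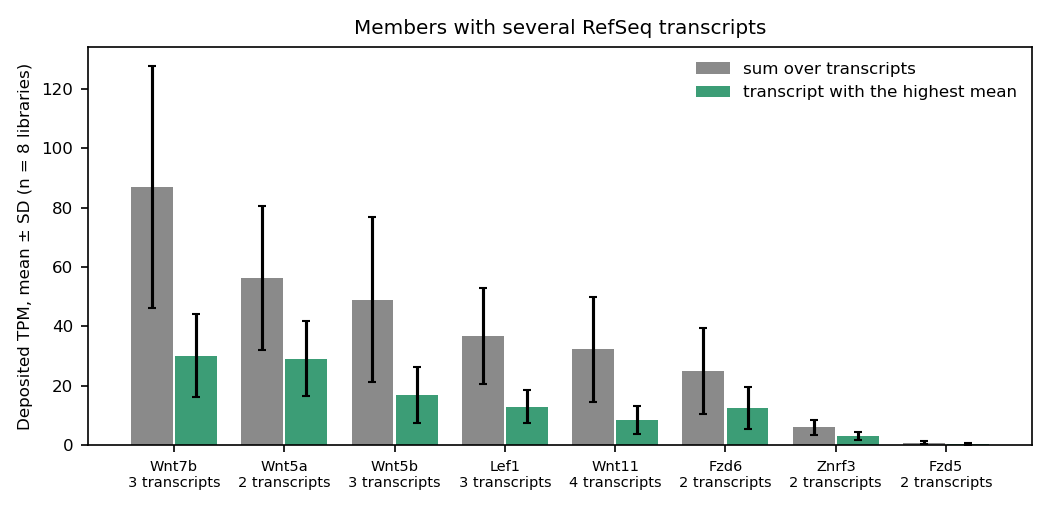
Mean deposited TPM (± SD over 8 libraries) of the 8 Wnt genes with several RefSeq transcripts, as the sum over transcripts (grey) and as the transcript with the highest mean (green). The sum for Wnt11 is 32.3 against 8.43 for its leading transcript, and that for Wnt7b is 87.0 against 30.1.

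The lesser ligands varied more from library to library. Wnt10a, known from tooth and hair development, measured 4.22, 7.71, 1.87 and 13.1 TPM with DMSO and 6.20, 2.86, 12.9 and 2.79 TPM with DOX. Wnt7a measured 8.31, 5.20, 3.21 and 6.04 TPM with DMSO and 12.6, 5.27, 0.307 and 3.75 TPM with DOX, so that DOX 19 lay far below the rest. Wnt2, a β-catenin-activating ligand, measured 1.47, 1.70, 9.06 and 3.72 TPM with DMSO and 1.16, 4.31, 9.83 and 7.91 TPM with DOX. Its DMSO 15 and DOX 19 values were several times those of the lowest libraries of the same arm.

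Wnt9b, the nephron inducer, measured 3.02, 8.26, 0.262 and 0 TPM with DMSO and 1.43, 3.51, 0 and 0.547 TPM with DOX. The highest value was in DMSO 5 and no read was counted in DMSO 20 or DOX 19. Wnt9a measured 1.45, 1.44, 1.64 and 0 TPM with DMSO and 4.26, 1.77, 0 and 0.980 TPM with DOX, with the same libraries at 0. A count of 0 allows up to 3 counts, or 0.0469 counts per 1e+06 in DMSO 20 and 0.0399 in DOX 19, and this limit covers counting error only. The other 9 ligands had means under 1 TPM: Wnt1, Wnt2b, Wnt3, Wnt3a, Wnt6, Wnt8a, Wnt8b, Wnt10b and Wnt16.

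Wnt genes sit in conserved neighbouring pairs, and in 3 of the 4 pairs within the set only the partner of higher level reached 1 TPM (coordinates: GRCm38.p6, RefSeq). Wnt10a had a mean of 6.47 TPM and Wnt6, 6.70 kb away on chromosome 1, had 0.0255 TPM. Wnt9a had 1.44 TPM and Wnt3a, 16.1 kb away on chromosome 11, had 0. Wnt9b had 2.13 TPM and Wnt3, whose annotated interval overlaps it on chromosome 11 (a gap of −1098 bp), had 0.00513 TPM. The fourth pair, Wnt10b and Wnt1 on chromosome 15, lies 11.7 kb apart and had 0.240 and 0.0686 TPM.

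Fzd1 was the most abundant receptor in each of the 8 libraries. It measured 56.1, 33.6, 53.6 and 57.5 TPM with DMSO and 40.6, 50.3, 32.8 and 57.3 TPM with DOX, and made up 31.9% to 57.7% of Fzd TPM on the single-transcript scale. Its coefficient of variation over the 8 libraries, 22.0% in TPM, was the lowest of the 33 genes described. Fzd7 and Fzd2 are the closest relatives of Fzd1. Fzd7 measured 11.4, 11.3, 13.0 and 19.4 TPM with DMSO and 10.2, 17.5, 20.1 and 9.36 TPM with DOX. Fzd2 measured 7.02, 6.78, 28.1 and 10.6 TPM with DMSO and 8.45, 8.56, 3.87 and 8.93 TPM with DOX. DMSO 15 had by far the most Fzd2, and it was also the library with the highest stromal marker sum, 2674 TPM against 273 to 969 TPM in the others. That sum was mostly Col1a1, Col1a2 and Col3a1 (732, 525 and 895 TPM). The markers did not move as a block: Pdgfra had 12.2 TPM in DMSO 15, less than in 6 of the other libraries, and Pdgfrb was highest in DMSO 20, at 313 TPM against 163 TPM in DMSO 15. The part of stroma in the Fzd2 value was not tested.

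Fzd6, which acts in planar cell polarity, measured 33.7, 25.9, 16.6 and 54.4 TPM with DMSO and 27.7, 19.9, 11.7 and 9.91 TPM with DOX. DMSO 20 was the highest and DOX 21 the lowest, and DOX 9 and DOX 12 lay within the DMSO range in TPM. In normalised counts DOX 12, at 2804, lay below the lowest DMSO value of 3224, and only DOX 9 lay within the range. Its 2 listed transcripts bring the mean from 25.0 TPM summed to 12.5 TPM for the leading transcript. Fzd3, the close relative of Fzd6, measured 3.94, 4.36, 2.49 and 3.06 TPM with DMSO and 2.95, 4.12, 2.34 and 3.31 TPM with DOX, a coefficient of variation of 22.6%. Fzd3 was therefore as even across the libraries as Fzd1, at a lower level.

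Fzd8 measured 8.85, 12.1, 8.59 and 23.5 TPM with DMSO and 10.0, 13.0, 6.37 and 9.03 TPM with DOX. Fzd4, which also serves as the receptor for norrin, measured 11.5, 21.0, 2.51 and 4.38 TPM with DMSO and 10.8, 11.3, 5.94 and 5.14 TPM with DOX. DMSO 5 held the highest Fzd4 and DMSO 15 the lowest. Fzd9 measured 0.525, 1.97, 0.0100 and 0 TPM with DMSO and 0.732, 3.76, 8.06 and 1.03 TPM with DOX, with 0 counts in DMSO 20 and a single count in DMSO 15. Fzd5 and Fzd10 had means of 0.753 and 0.189 TPM.

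Lrp6 was the more abundant co-receptor in every library. It measured 4.89, 8.83, 6.18 and 8.57 TPM with DMSO and 7.01, 7.42, 13.4 and 7.33 TPM with DOX. Lrp5 measured 2.58, 5.68, 1.80 and 0.292 TPM with DMSO and 2.76, 3.31, 1.71 and 2.72 TPM with DOX. DMSO 20 had little Lrp5, so that Lrp6 made up 96.7% of the pair there against 60.9% in DMSO 5.

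Dkk3, a divergent Dkk protein whose place in Wnt signalling is less clear than that of Dkk1, had the highest mean TPM of the set. It measured 66.1, 26.2, 198 and 170 TPM with DMSO and 71.9, 94.7, 74.7 and 78.7 TPM with DOX. The DOX libraries lay close together, inside the wide DMSO range. In normalised counts, the SD was 12527 around a DMSO mean of 16878 and 436 around a DOX mean of 10698 (n = 4 each). The DMSO extremes were also the extremes of the stromal marker sum: DMSO 15, with 198 TPM of Dkk3, had 2674 TPM of stromal markers, and DMSO 5, with 26.2 TPM of Dkk3, had 273 TPM. DMSO 20 had 170 TPM of Dkk3 at a stromal sum of 771 TPM. The part of stroma in these values was not tested.

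Dkk2, which binds Lrp5 and Lrp6, measured 50.2, 46.5, 52.6 and 134 TPM with DMSO and 16.9, 31.7, 91.4 and 53.4 TPM with DOX. DMSO 20 and DOX 19 had the highest Dkk2 of their arms. Dkk1, the prototype of the family and a target of β-catenin, measured 3.77, 27.3, 0.321 and 0 TPM with DMSO and 1.66, 21.4, 5.45 and 0.338 TPM with DOX. Its coefficient of variation, 142%, was the highest of the genes described. DMSO 5 and DOX 12 held most of the Dkk1 counts, and these were the libraries with the highest nephron progenitor marker sums (Six2, Cited1, Eya1 and others), 43.8 and 37.6 TPM against 6.76 to 27.9 TPM in the others. These sums were led by Cited1, with 29.6 and 19.7 TPM. Eya1 was instead highest in DMSO 20, at 21.9 TPM against 6.77 TPM in DMSO 5, and Six2 had 5.99 TPM in DMSO 20 and 5.23 TPM in DMSO 5, although Dkk1 had no count in DMSO 20. Their part in the Dkk1 values was not tested. Dkk4 had 1 count in all, in DOX 21.

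Sfrp2, a secreted decoy for Wnt proteins, measured 36.6, 46.3, 6.04 and 27.1 TPM with DMSO and 15.2, 44.7, 21.9 and 20.0 TPM with DOX. Sfrp1 measured 6.82, 7.83, 4.71 and 0 TPM with DMSO and 1.09, 10.3, 0 and 1.99 TPM with DOX. Sfrp4 measured 3.91, 1.53, 2.06 and 6.40 TPM with DMSO and 1.54, 1.47, 0 and 1.40 TPM with DOX. Zeros again fell in DMSO 20 and DOX 19 alone: Sfrp1 in both, and Sfrp4 in DOX 19, while DMSO 20 had the highest Sfrp4. Sfrp5 had a mean of 0.0460 TPM.

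Among the genes of the R-spondin axis, Znrf3 and Rspo3 had the highest mean TPM. Znrf3, which removes Fzd receptors, measured 3.61, 9.95, 3.70 and 9.93 TPM with DMSO and 4.24, 5.89, 4.98 and 5.22 TPM with DOX. The DMSO libraries formed a low and a high pair, with the DOX libraries between them. The mean of Znrf3 was 5.94 TPM summed and 3.08 TPM for the leading of its 2 transcripts. Its relative Rnf43 measured 2.94, 10.1, 0.407 and 2.91 TPM with DMSO and 1.63, 3.13, 0 and 0.818 TPM with DOX.

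Rspo3 measured 1.86, 7.06, 2.76 and 13.5 TPM with DMSO and 1.67, 10.2, 6.08 and 3.29 TPM with DOX. Rspo1 was scarcer, with 0.389, 0.757, 0.0806 and 0 TPM with DMSO and 0.499, 4.15, 2.21 and 0.302 TPM with DOX. DOX 12 and DOX 19 had the highest Rspo1, and the other DOX libraries lay within the DMSO range. Lgr5, an R-spondin receptor and stem cell marker, measured 1.66, 5.50, 0.0718 and 0 TPM with DMSO and 0.850, 4.59, 2.71 and 0.979 TPM with DOX. Like Dkk1, it was highest in DMSO 5 and DOX 12 and without a count in DMSO 20. For Rspo2, 63 of 67 counts came from DMSO 15.

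The targets of β-catenin differed widely in level. Lef1, a TCF/LEF factor that is itself a target, measured 19.4, 35.0, 20.7 and 44.6 TPM with DMSO and 25.3, 58.3, 60.3 and 30.1 TPM with DOX, and its mean of 36.7 TPM over 3 transcripts was 13.0 TPM for the leading transcript. Axin2, the feedback inhibitor widely used as a readout of β-catenin activity, measured only 0.544, 0.633, 0.278 and 0.293 TPM with DMSO and 0.301, 0.401, 0.310 and 0.266 TPM with DOX. DMSO 3 and DMSO 5 had the highest Axin2, and the other 6 libraries lay together. DMSO 3 and DMSO 5 were also the libraries with the highest epithelial marker sums, 1867 and 1520 TPM against 450 to 1296 TPM in the others. Epcam, Cdh1, Krt8 and Krt18 were each highest in this pair, but Cldn4 and Pax8 were not. Cldn4 was highest in DOX 9, at 125 TPM, where Axin2 had 0.301 TPM. Pax8 was highest in DOX 12, at 117 TPM, and its DMSO 3 value also lay below those of DMSO 20 and DOX 19. The part of epithelium in the Axin2 values was not tested.

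**Figure D3:**
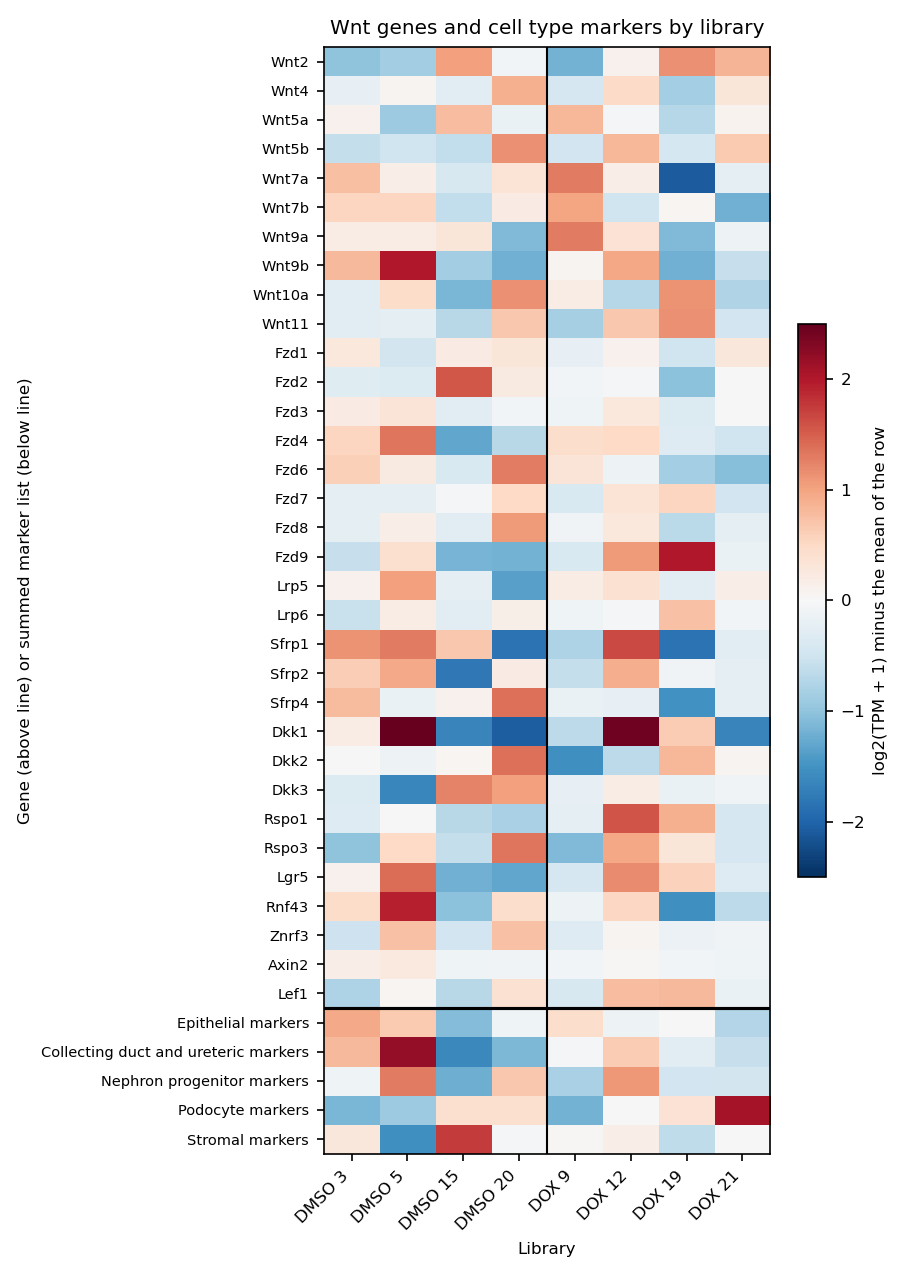
Deviation of log2(TPM + 1) from its mean over the 8 libraries for the 33 Wnt genes (above the line) and for summed cell type markers (below the line); red is above and blue below the mean, on a scale cut at 2.5 either way, with DMSO libraries left of the vertical line and DOX libraries right. DMSO 5 is red for Dkk1, Wnt9b, Rnf43 and Lgr5 and for collecting duct and nephron progenitor markers, while DMSO 15 is red for Fzd2, Dkk3 and stromal markers.

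Single libraries thus carried much of the variation, and the extremes were shared out unevenly. Of the 33 genes described, 10 had their highest TPM in DMSO 5, 9 in DMSO 20, 6 in DOX 19, 4 in DOX 9, 2 each in DMSO 15 and DOX 12 and 0 in DMSO 3 and DOX 21. The lowest TPM fell in DOX 19 for 11 genes and in DMSO 20 for 8, where Wnt9a, Wnt9b and Sfrp1, at 0 in both, were counted for both. DMSO 5 also stood at the end of the marker sums for collecting duct and ureteric bud (Ret, Gata3, Hoxb7 and others), 588 TPM against 40.9 to 226 TPM in the others, and it had the lowest stromal sum. Of the 588 TPM, Fxyd4, a marker of mature principal cells, gave 306 TPM. Ret, Gata3 and Hoxb7 had 16.5, 40.0 and 102 TPM in DMSO 5, each the highest of the 8 libraries. Wnt9b, whose normal source is the ureteric epithelium, had its highest TPM in that library. The match did not hold throughout: Wnt9b was at 0 in DMSO 20 and DOX 19, with collecting duct sums of 58.6 and 105 TPM, and at 0.262 TPM in DMSO 15, where that sum was lowest, 40.9 TPM. The part of cell makeup in these differences was not tested.

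Against this spread, DOX was compared with DMSO by DESeq2 over all genes, and genes were called where the adjusted p did not exceed 0.05 and the difference reached 1.5-fold. None of the 41 Wnt genes with an adjusted p was called (0 of 41), where 0.147% of the 17011 genes with an adjusted p were called. By edgeR's quasi-likelihood test, 0 of the 39 tested members were called and 0% of 15562 genes. At an unadjusted p under 0.05 stood 1 of 44 members by DESeq2 and 1 of 39 by edgeR, Fzd6 in both, against a background of 4.67% and 3.06% of genes. Among 43 members with a mean count of at least 2, 0 had DMSO and DOX counts that did not overlap, against 2.71% of all such genes. No member was therefore shown to differ with DOX. Wnt3, Wnt6 and Dkk4 had too few counts for an adjusted p, and the p of Rspo2 was removed because 1 library decided it.

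Fzd6 (Entrez 14368, chromosome 15, 39006149 to 39038192, GRCm38.p6) was the member with the smallest p. Its normalised counts were 6475, 3918, 3224 and 8666 with DMSO (mean 5571 ± 2493, SD, n = 4) and 4727, 2804, 2042 and 1686 with DOX (2815 ± 1357, n = 4). The log2 fold change was −0.98 (SE 0.461, 95% interval −1.89 to −0.08). DESeq2 gave an unadjusted p of 0.0328 and an adjusted p of 0.868, edgeR an unadjusted p of 0.0400 and an adjusted p of 0.999, and an exact two-sided permutation test of the counts a p of 0.114. Leaving out 1 library at a time gave log2 fold changes of −1.36 to −0.69, and leaving out DMSO 20 and DOX 19 together gave −0.54 (DESeq2 adjusted p = 0.918). The Fzd6 difference thus kept its sign but did not pass the adjustment over all genes, nor the permutation test.

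**Figure D4:**
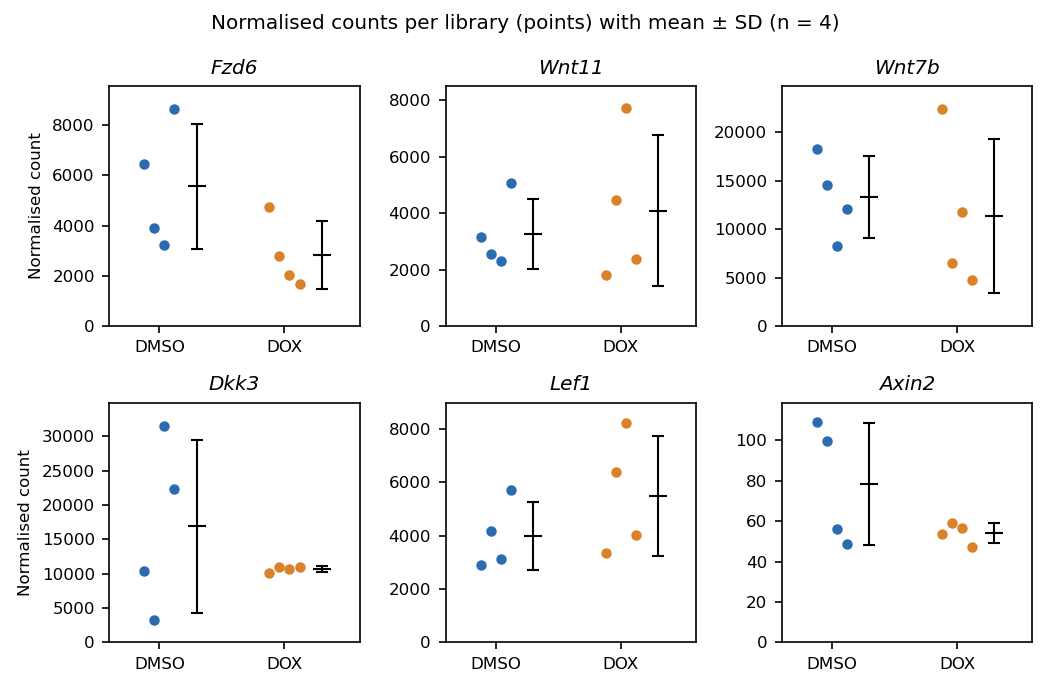
DESeq2-normalised counts per library for Fzd6, Wnt11, Wnt7b, Dkk3, Lef1 and Axin2, with blue DMSO and orange DOX points and the mean ± SD (n = 4) beside them; each axis starts at 0. DMSO and DOX counts overlap in every panel, and the Dkk3 counts span 3259 to 31518 with DMSO and 10074 to 11011 with DOX.

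The remaining receptors had log2 fold changes of −0.26 for Fzd1, −0.97 for Fzd2, −0.22 for Fzd3, −0.30 for Fzd4, −0.03 for Fzd7, −0.53 for Fzd8 and 2.48 for Fzd9. The interval for Fzd9 ran from −0.48 to 5.44, and its TPM was led by DOX 19. With limma-voom the sign turned for Fzd4. The Fzd2 value rested on DMSO 15, without which it was −0.16. That of Fzd8 was −0.16 without DMSO 20 and −0.011 without DMSO 20 and DOX 19 together. Fzd4 was above 0 without DMSO 5, and Fzd7 without any of DMSO 20, DOX 9 and DOX 21. Counting every Fzd gene, 9 of 10 had a value below 0 with DESeq2 and 7 of 10 with limma-voom, and the DESeq2 median was −0.28. Leaving out 1 library moved this median between −0.51 (without DOX 9) and −0.19 (without DOX 19). Over all 44 tested members, 31 (70.5%) were below 0 with a median of −0.25, and over all genes the share was 55.5% and the median −0.07. With limma-voom the share was 61.5% of members and 50.5% of all genes. These counts are a description, since no member passed the test.

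Among the ligands, 11 of 17 tested had a value below 0 and the median was −0.14. Leaving out 1 library moved this median between −0.55 (without DOX 9) and −0.02 (without DMSO 3). The log2 fold change was −0.23 for Wnt7b (95% interval −1.26 to 0.80), −0.06 for Wnt5a (−1.08 to 0.95), 0.11 for Wnt5b (−0.89 to 1.11) and −0.31 for Wnt4 (−1.07 to 0.44). Each of these signs turned in at least 1 alternative. Wnt5a turned with limma-voom, without DMSO 20 and DOX 19 together and in 3 of 8 fits that left out 1 library. Wnt5b turned in 5 of those 8 fits and stood at 0.87 without DMSO 20 and DOX 19. Wnt7b turned without DOX 21, and Wnt4 stood at 0.17 without DMSO 20 and DOX 19. For Wnt11 the normalised counts were 3138, 2547, 2305 and 5060 with DMSO and 1823, 4456, 7713 and 2379 with DOX. The log2 fold change of Wnt11 was 0.33 (−0.68 to 1.34), and it was below 0 once DOX 19 was left out. Among the ligands with a mean of at least 1 TPM, intervals were widest for those with zeros in DMSO 20 and DOX 19, from −4.80 to 2.45 for Wnt9b and from −2.87 to 3.86 for Wnt9a. Without DMSO 5 the value of Wnt9b was −0.012.

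Of 8 antagonists tested, 6 had a value below 0, with a median of −0.42 (−0.63 without DOX 21, −0.20 without DOX 9). Dkk3 had a log2 fold change of −0.66 (95% interval −1.83 to 0.52), Dkk2 of −0.57 (−1.73 to 0.59) and Dkk1 of −0.19 (−3.41 to 3.04). Without DMSO 15 the value of Dkk3 was −0.16, and without DMSO 20 that of Dkk2 was −0.15. The sign for Dkk1 turned with limma-voom and without any of DMSO 5, DOX 9 and DOX 21. Values were −0.27 for Sfrp2, −0.79 for Sfrp1 and −1.76 for Sfrp4. The Sfrp4 interval, −3.98 to 0.46, took in 0, and 1 of its 4 DOX libraries was at 0. The Sfrp4 value was −2.84 with limma-voom and −0.94 without DMSO 20 and DOX 19. For Sfrp1 the value was −2.28 without DOX 12.

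In the R-spondin axis 3 of 5 tested genes had a value below 0. Rspo1 had a log2 fold change of 2.44 (95% interval −0.10 to 4.97; DESeq2 adjusted p = 0.976), with its highest counts in DOX 12 and DOX 19. The values were −1.62 for Rnf43 (−4.20 to 0.97, and −0.78 without DMSO 5), −0.45 for Znrf3 (−1.15 to 0.26), −0.30 for Rspo3 (−1.68 to 1.08) and 0.30 for Lgr5 (−2.55 to 3.15). Without DMSO 20 and DOX 19 the signs of Rspo3 and Lgr5 turned, to 0.23 and −0.25, and that of Lgr5 turned in 3 of 8 fits that left out 1 library. For the co-receptors the log2 fold change was −0.04 for Lrp5 and 0.27 for Lrp6. The sign of Lrp5 turned with limma-voom and without any of DMSO 3, DMSO 5 and DOX 19, and that of Lrp6 without DOX 19, to −0.048.

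The target genes pointed apart. Axin2 had normalised counts of 109, 99.8, 56.2 and 48.7 with DMSO and of 53.5, 59.0, 56.4 and 47.2 with DOX. Its log2 fold change was −0.54 (95% interval −1.39 to 0.31; DESeq2 adjusted p = 0.999). Lef1 had normalised counts of 2906, 4181, 3127 and 5698 with DMSO and of 3346, 6402, 8211 and 4010 with DOX. Its log2 fold change was 0.47 (−0.29 to 1.22; DESeq2 adjusted p = 0.999). Both intervals took in 0, and DMSO and DOX counts overlapped for each gene.

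Among the cell type markers, 0 were called between the arms and 3 stood at an unadjusted p under 0.05 with DESeq2. Over all genes, DESeq2 called 0.147% and put 4.67% at an unadjusted p under 0.05. Ret, of the ureteric tips, had a log2 fold change of −1.55 (DESeq2 adjusted p = 0.885). Col1a1, of stroma, had −1.85 (DESeq2 adjusted p = 0.873), with 732 TPM in DMSO 15 against 37.1 to 178 TPM in the others. Krt5, a basal keratin, had 9.01 (DESeq2 adjusted p = 0.0599), with 16.9 TPM in DOX 19, 4.14 TPM in DOX 21 and at most 0.0557 TPM elsewhere. Their part in the Wnt values was not tested.

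**Figure D5:**
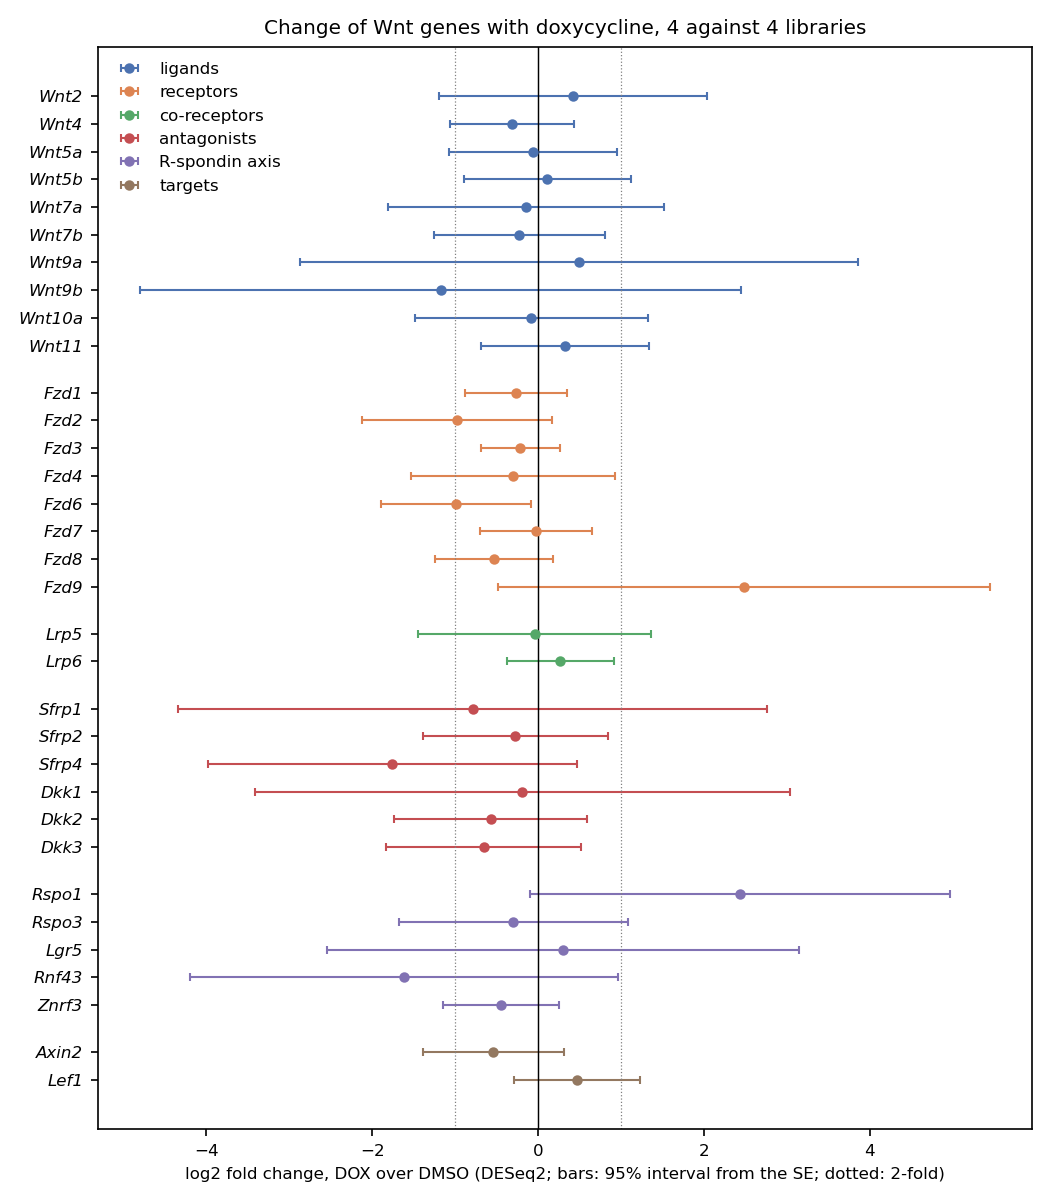
DESeq2 log2 fold change of DOX over DMSO for the 33 Wnt genes, coloured by role, with 95% intervals as bars (4 against 4 libraries); 0 is the solid line and 2-fold the dotted lines. Every interval except that of Fzd6, −1.89 to −0.08, takes in 0, and those of Fzd1, Fzd3, Fzd7 and Lrp6 stay within 2-fold either way.

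The width of these intervals sets what the comparison could show. For 4 of the 44 tested members, Fzd1, Fzd3, Fzd7 and Lrp6, the interval lay within 2-fold in either direction, and for 22 within 4-fold. Fzd3 had the narrowest of the receptors, −0.69 to 0.26. For the other 22 members the interval reached past 4-fold in at least 1 direction.

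Further genes of the pathway, from Wnt secretion and other receptors to the nuclear partners of β-catenin, were read from a list of 62. Of these, 60 were tested and 0 were called by DESeq2, where the share over all genes was 0.147%. At an unadjusted p under 0.05 stood 0 by DESeq2 and 0 by edgeR, against 4.67% and 3.06% of all genes. Log2 fold changes were below 0 for 33 and above 0 for 27, with a median of −0.04, beside 55.5% of all genes below 0 and a median of −0.07. Wls, which carries Wnt proteins to the membrane, had a mean of 745 ± 170 TPM (SD, n = 8) and a log2 fold change of 0.04. Ctnnb1, the gene for β-catenin, had 699 ± 166 TPM and a log2 fold change of −0.02 (SE 0.282). Csnk1a1, a kinase of the complex that marks β-catenin for destruction, had 225 ± 37.3 TPM and 0.25.

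By summed TPM, the leading genes of the other groups were the atypical Wnt receptor Ryk (170 ± 48.2 TPM), the target gene Cd44 (150 ± 59.3 TPM), the secreted Wnt-binding protein Frzb (26.8 ± 13.7 TPM) and the planar polarity gene Vangl1 (23.3 ± 4.03 TPM). All are sums over transcripts except those of Csnk1a1 and Frzb, which have 1. On the single-transcript scale Wls had 378 TPM, Ctnnb1 359, Ryk 57.7, Cd44 27.4 and Vangl1 11.9. Cd44 and Vangl1 lost their lead on that scale, to Ccnd1 (43.1 TPM) among the target genes and to Prickle3 (14.5 TPM) among the planar polarity genes. Wls and Ctnnb1 therefore stood above each of the 47 Wnt genes on either scale. The log2 fold change was −0.63 for Frzb, −0.17 for Cd44, −0.03 for Vangl1 and 0.00 for Ryk.

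Since Lef1 was among the more abundant genes, the promoters of the set were read for CTTTGAT, a form of the TCF/LEF core motif, on either strand. Other forms of the motif were not searched. RefSeq windows (GRCm38.p6) from 250 bases before to 50 after the start were at hand for 29 of the 47 genes, 36 windows in all. The motif was in 2 of these windows (5.56%) and in 1225 of all 32851 windows (3.73%). The windows were a Wnt11 promoter (chr7:98834862-98835111, plus strand), with the motif at −51 from the start and read on the reverse strand, and a Wnt5b promoter (chr6:119449387-119449636, minus strand), with the motif at −71. The other Wnt11 window, the other 2 Wnt5b windows, the only Axin2 window (chr11:108920099-108920348, plus strand) and the 4 Lef1 windows held none. A match describes the letters only. The 250 bases before each start are printed 5′ to 3′, with the motif, or its reverse complement, in capitals, to show where it lies in these Wnt11 and Wnt5b windows, beside the Axin2 window without a match.
Wnt11: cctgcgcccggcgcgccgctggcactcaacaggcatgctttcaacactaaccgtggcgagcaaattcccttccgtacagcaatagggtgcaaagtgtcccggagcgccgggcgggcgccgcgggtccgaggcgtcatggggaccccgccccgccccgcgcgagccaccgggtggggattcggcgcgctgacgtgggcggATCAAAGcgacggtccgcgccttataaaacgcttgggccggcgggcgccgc
Wnt5b: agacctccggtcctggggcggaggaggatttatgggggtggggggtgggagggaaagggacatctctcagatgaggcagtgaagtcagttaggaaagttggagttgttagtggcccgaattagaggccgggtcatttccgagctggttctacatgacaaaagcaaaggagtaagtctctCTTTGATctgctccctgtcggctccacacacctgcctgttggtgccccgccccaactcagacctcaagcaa
Axin2: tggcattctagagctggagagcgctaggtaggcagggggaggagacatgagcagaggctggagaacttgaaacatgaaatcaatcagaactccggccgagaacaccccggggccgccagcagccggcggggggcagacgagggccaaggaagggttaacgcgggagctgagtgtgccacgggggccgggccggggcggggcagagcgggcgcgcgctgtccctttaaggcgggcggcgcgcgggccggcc

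The library kit does not keep strand, so reads of genes that share exon bases on the opposite strand cannot be told apart. In the GENCODE M21 annotation 9 members share such bases, among them Lef1 (1208 bases with Gm43352), Wnt11 (364 with Gm8398), Wnt5a (358 with Gm2670), Wnt7b (324 with AU022754), Axin2 (209 with Gm11670) and Fzd6 (152 with Gm26704). The levels of these genes carry that limit.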

How the data were processed

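RNA of 4 DMSO and 4 DOX tubuloid cultures was poly-A selected and amplified with a SMART-Seq v4 kit. The authors deposited, for each library, counts, FPKM and TPM per RefSeq transcript of mm10. The submitters' processing notes name STAR, featureCounts and DESeq2, with versions and counting settings not given in the sources used here. A read that fits several transcripts of a gene was counted for each, so sums overstate genes with several transcripts. The deposited FPKM values were not used. The sample labels give postnatal day 7 to 10 for the tissue, and the methods of the study give an earlier window.

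Counts and TPM were summed by gene symbol (24063 genes from 33068 transcripts). DOX was compared with DMSO in DESeq2 1.42.0 (R 4.3.3; Wald test, median-of-ratios size factors, Cook filter on, independent filtering at 0.1, unshrunken fold changes, Benjamini-Hochberg adjustment over all genes), beside edgeR 4.0.16 and limma 3.58.1. DESeq2, the tool of the study, was used as the leading test in place of edgeR. Scripts were tested on simulated data. The members and the gene lists were chosen with earlier results of these data known. Genes were described by library if their mean TPM was at least 1, if they were called, had an unadjusted p under 0.05 or did not overlap, and for Wnt11, Axin2, Lef1 and Lgr5 always. Of the further pathway genes, those called or with an unadjusted p under 0.05 and the most abundant of each group were named. Marker lists covered epithelium, collecting duct, nephron progenitors, proximal tubule, podocytes, stroma, endothelium, leukocytes and urothelium. They had 0 genes called by DESeq2 and 3 at an unadjusted p under 0.05, beside 0.147% and 4.67% of all genes. Their sums over the 8 libraries ranged from 5.37 to 23.7 TPM for proximal tubule, 41.3 to 406 TPM for podocytes, 22.2 to 161 TPM for endothelium, 0.00680 to 28.7 TPM for leukocytes and 0.858 to 20.7 TPM for urothelium. Depth was 63922677 to 102716313 counts per library. The closing section gives the alternatives tried.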

Additional observations from a re-analysis of the deposited data

Results flagged for a closer look

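In each arm, the log2(normalised count + 1) of every Wnt gene described and of Pkd2 was searched for a library set apart from the other 3 (a gap to the nearest over Dixon's 95% critical share of the range). This was so in 7 of 68 groups, where chance gives about 1 in 20 for independent groups. These groups are genes of the same 8 libraries and not independent, so the count is a description. DMSO 20 was set apart in 5 of them. It was highest for Wnt4, at 12.30 against 11.37 to 11.43, for Wnt5b, at 13.04 against 11.29 to 11.52, and for Fzd8, at 11.59 against 10.42 to 10.55. It was lowest for Wnt9a, at 0 against 7.48 to 8.02, and for Sfrp1, at 0 against 9.93 to 10.45. DOX 19 was lowest for Lrp5, at 8.57 against 9.20 to 9.22, and for Sfrp4, at 0 against 6.50 to 6.83. These are the libraries with counts in the fewest genes, 13243 in DMSO 20 and 13599 in DOX 19.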

How the results depend on the processing

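The count of Wnt genes called stayed at 0 in all 16 alternatives, and so did that of the 62 further pathway genes. The smallest adjusted p of any Wnt gene described was 0.297, for Fzd6 in DESeq2 without DOX 9. Pkd2 had log2 fold changes of −0.41 to −0.20 and adjusted p of at least 0.799. Over all genes, DESeq2 called 25, edgeR 0 (476 at an unadjusted p under 0.05), limma-voom 0 (478), DESeq2 16 where all 8 libraries had to hold 10 counts or more, without the Cook filter 48, and without DMSO 20 and DOX 19 together 51. Leaving out 1 library gave 14 (DMSO 3) to 75 (DMSO 15), with 48 without DMSO 20 and 38 without DOX 21. No paired analysis was made. The labels give no animal or preparation by which a DMSO culture could be paired with a DOX culture, so any such pairing was not used.

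Of 519 log2 fold changes of the Wnt genes described, 477 kept their sign and 42 reversed, in 16 genes. The cause was not tested. With limma-voom, Wnt5a was at 0.0096, Fzd4 at 0.022, Lrp5 at 0.37 and Dkk1 at 2.04. Without DMSO 20 and DOX 19, Wnt2 was at −0.098, Wnt4 at 0.17, Wnt5a at 0.022, Wnt7a at 0.26, Rspo3 at 0.23 and Lgr5 at −0.25. Leaving out 1 library gave ranges of −0.0071 to 1.36 for Wnt2, −0.43 to 0.36 for Wnt5a, −0.092 to 0.70 for Wnt5b, −1.05 to 0.26 for Wnt7a, −0.79 to 0.031 for Wnt7b, −0.55 to 0.91 for Wnt9a, −0.77 to 0.43 for Wnt10a, −0.17 to 0.61 for Wnt11, −0.60 to 0.24 for Fzd4, −0.29 to 0.12 for Fzd7, −0.42 to 0.52 for Lrp5, −0.048 to 0.40 for Lrp6, −1.51 to 2.04 for Dkk1, −0.69 to 0.35 for Rspo3 and −0.15 to 1.70 for Lgr5. Without a change of sign, 1 library moved 6 further values by over 1.5-fold, with ranges of −1.22 to −0.16 for Fzd2 (−0.16 without DMSO 15), −2.07 to −0.012 for Wnt9b (−0.012 without DMSO 5, −2.07 without DOX 12), −2.28 to −0.37 for Sfrp1 (−2.28 without DOX 12), −2.25 to −0.78 for Rnf43 (−0.78 without DMSO 5, −2.25 without DOX 12), 1.47 to 4.03 for Fzd9 (4.03 without DMSO 5, 1.47 without DOX 19) and 1.77 to 3.20 for Rspo1 (3.20 without DMSO 5, 1.77 without DOX 12). Each of the 8 libraries, left out, reversed from 3 genes (DMSO 3, DMSO 15, DOX 9) to 6 (DOX 19). Other moves of over 1.5-fold that kept the sign were, with limma-voom, Wnt9b to −0.45, Fzd9 to 4.18, Sfrp4 to −2.84, Rspo1 to 3.06, Lgr5 to 2.87 and Rnf43 to −2.75, and, without DMSO 20 and DOX 19, Wnt5b to 0.87, Fzd9 to 1.08, Sfrp4 to −0.94 and Rspo1 to 1.84. With a single transcript per gene, 6 mean TPM values (Wnt5a, Wnt5b, Wnt7b, Wnt11, Znrf3 and Lef1) moved by more than 1 SD.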
